A study of Mus musculus with 8 samples.

Results

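The Sonic hedgehog pathway was examined through 9 genes that make up its core. They encode the ligand Shh, its receptor Ptch1, the signal transducer Smo, the transcription factors Gli1, Gli2 and Gli3, the ligand-binding inhibitor Hhip and the co-receptors Gas1 and Boc. The genes were chosen with earlier results of these data known. They were taken by name, as every probe outside the control spots whose accession maps to 1 of these symbols. This gave 13 of the 41174 probes on the array, and all 9 genes among the 17178 that carried a symbol. Expression had been measured in MGE microdissected from C57BL/6 mice at E13.5, with 1 sample on each 1-colour Agilent whole mouse genome array. The 4 WT samples were labelled Nkx2-1flox/+;Olig2tva-cre- and the 4 Nkx2-1cKO samples Nkx2-1flox/+;Olig2tva-cre+. By these labels a floxed Nkx2-1 allele was shared by both groups and the Cre separated them. The Cre is driven from Olig2 regulatory sequence, so recombination is limited to cells with a history of Olig2 expression. The methods name an Nkx2-1f/f strain, which the heterozygous labels of the mutant samples do not match. The labels do not say whether a sample was 1 embryo or a pool, so the p-values measure the spread between these samples.

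The level of each probe is given as a log2 signal relative to the 75th percentile of its own array, so that 0 is a bright probe and negative values are usual. Nkx2-1 had a log2 signal of 1.87, 1.95, 1.82 and 1.85 in WT replicates 1 to 4 and of -4.26, -4.58, -4.67 and -4.35 in Nkx2-1cKO replicates 1 to 4. The targeted gene thus separated WT from Nkx2-1cKO arrays without overlap and stood at 1.24% of WT (limma adjusted p = 4.67e-09). This is lower than loss of a single allele, the state that the heterozygous label describes, would leave. Of 9 markers of MGE and preoptic cells, 7 fell in the Nkx2-1cKO and none rose. The number of probes well above background ran from 31296 to 32683 on the WT arrays. On Nkx2-1cKO replicates 1 to 4 it was 29542, 29827, 29283 and 32733, so replicates 1 to 3 lay below every WT array. The part of this difference in the changes of dim probes was not tested. No spot was saturated. On WT replicate 1 dim probes read high: over the dimmest 20% of probes its median deviation from the other arrays was 1.42 on the log2 scale, against -0.20 to 0.02 for the other 7 arrays. The arrays lay on 2 slides, with 2 arrays of each group on each.

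Shh is a secreted protein that binds Ptch1, and Ptch1 without ligand holds the membrane protein Smo inactive. Active Smo changes the state of the Gli zinc finger proteins: Gli2 is known mainly as an activator, Gli3 mainly as a repressor in the absence of the signal, and Gli1 as an activator whose gene is itself a target. Ptch1, Gli1 and Hhip are classical target genes, while Gas1, Boc and their relative Cdon help cells to bind Shh and are often low where the signal is strong. In the ventral forebrain Shh induces Nkx2-1 early, and later Shh is transcribed in neurons of the MGE mantle and in the preoptic area, next to progenitors that respond to it.

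The sequence just upstream of the gene is shown for Hhip and Gas1. These are the members that moved in opposite directions and that have RefSeq sequence (GRCm38.p6) upstream of their annotated start; Hhip fell and Gas1 rose in the Nkx2-1cKO (values follow). Both were searched on both strands for the Gli motif GACCACCCA, for its core CCACCC and for the NKX2-1 core CAAGTG. Capitals mark the Gli core, which overlaps the longer Gli motif.
Hhip, minus strand, chr8:80058061-80058258: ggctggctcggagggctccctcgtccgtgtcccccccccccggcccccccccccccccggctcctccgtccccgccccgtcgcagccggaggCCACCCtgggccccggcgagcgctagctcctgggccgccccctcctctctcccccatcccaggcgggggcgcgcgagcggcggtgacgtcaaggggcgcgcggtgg
Gas1, minus strand, chr13:60177536-60177785: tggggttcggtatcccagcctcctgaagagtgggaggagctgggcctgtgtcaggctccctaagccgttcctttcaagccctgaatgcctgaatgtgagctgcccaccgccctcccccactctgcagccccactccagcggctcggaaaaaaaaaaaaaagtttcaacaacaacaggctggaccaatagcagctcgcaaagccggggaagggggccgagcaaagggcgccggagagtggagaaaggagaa
The 198 bases of Hhip held a single Gli core, at positions -106 to -101 counted back from the annotated start of the gene, and the 250 bases of Gas1 held none. Smo and Gli3, which did not pass the threshold, also held a Gli core each in their 250 bases, at -162 to -157 and at -170 to -165. The core is common: it was found in 22.1% of 32851 RefSeq windows of 198 bases and in 28.1% of those of 250 bases. The full Gli motif and the NKX2-1 core were in neither sequence. They were found in 0.192% and 9.65% of the windows of 198 bases and in 0.225% and 11.6% of those of 250 bases. A match or its absence describes these letters in these windows and is no measure of binding.

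Of the 9 genes, Shh and Hhip were lower and Gas1, Boc and Gli2 were higher in the Nkx2-1cKO MGE (limma, Benjamini-Hochberg adjustment over 31283 probes, adjusted p under 0.05). Ptch1, Smo, Gli1 and Gli3 did not pass the threshold. Over all 14449 tested genes 1.34% passed, 0.851% lower and 0.491% higher. By probe, 6 of 12 passed, 3 lower and 3 higher, where 1.04% of all tested probes passed, 0.614% lower and 0.422% higher. In the same 5 genes the WT and Nkx2-1cKO arrays did not overlap. Among all genes, 4.03% were lower and 2.8% were higher without overlap, and among all probes 4.11% and 2.27%. The median log2 fold change of the 9 genes was 0.07, and that of all genes with a symbol was -0.00. The Nkx2-1cKO level of the 5 genes lay between 30.6% and 188% of WT. In RNA from whole tissue, fewer cells of a type and less RNA per cell cannot be told apart.

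**Figure D1:**
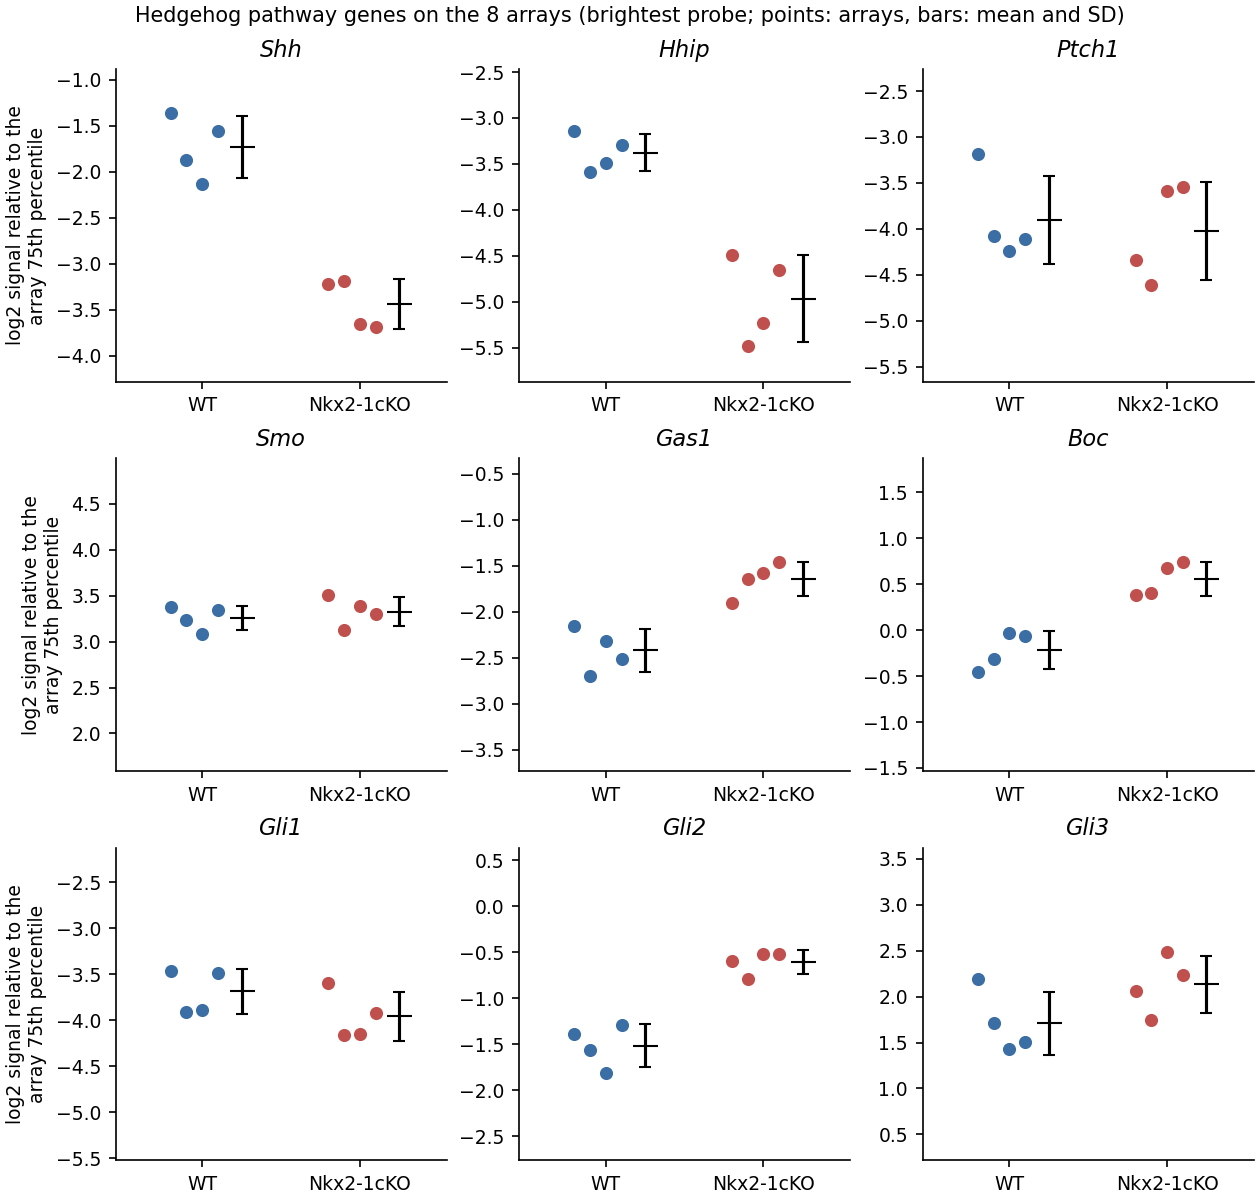
Log2 signal relative to the 75th percentile of the array for the brightest probe of each gene, with WT arrays in blue and Nkx2-1cKO arrays in red; each point is 1 array, and the bars give mean and SD (n = 4). Every panel spans the same range, and the groups are apart for Shh, Hhip, Gas1, Boc and Gli2 and overlap for Ptch1, Smo, Gli1 and Gli3.

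The ligand Shh was measured by 1 probe, printed as 10 spots per array. Its log2 signal was -1.36, -1.87, -2.13 and -1.56 in WT replicates 1 to 4, and -3.22, -3.19, -3.66 and -3.69 in Nkx2-1cKO replicates 1 to 4. The lowest WT array was more than 1 log2 unit above the highest Nkx2-1cKO array. In log2 units Shh fell by 1.71 (standard error, SE, 0.19, limma adjusted p = 0.0025), which left 30.6% of WT (95% confidence interval 22.6% to 41.3%). In the Nkx2-1cKO the probe stayed well above background on 4 of 4 arrays, so a reduced level of Shh RNA was still measured. Slide 1 gave -1.69 and slide 2 gave -1.73. With each array left out in turn it lay between -1.84 and -1.59, past the threshold each time. On a probe of its own, the ligand Dhh had a log2 fold change of -0.28 (limma adjusted p = 0.677), and the ligand Ihh was close to background.

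Hhip is a membrane protein that binds hedgehog ligands and keeps them from Ptch1. It was measured by 2 probes, and both fell. On the brighter probe the WT log2 signals were -3.14, -3.59, -3.49 and -3.29 in replicates 1 to 4, and the Nkx2-1cKO signals were -4.49, -5.48, -5.23 and -4.65. The WT arrays were close together (SD 0.20), and the Nkx2-1cKO arrays varied more (SD 0.47). The brighter probe fell by 1.59 (SE 0.24, limma adjusted p = 0.0115) and the other by 1.68 (SE 0.25, limma adjusted p = 0.00998), or to 33.2% and 31.2% of WT. The pair differed in their change by 0.09 (exact two-sided permutation test over the 8 arrays, p = 0.629). Within slides the brighter probe changed by -1.75 and -1.42. The size depended on the processing. With quantile normalization the brighter probe fell by 1.39 (limma adjusted p = 0.0193). With normexp on the median signal followed by quantile normalization it fell by 0.80 (limma adjusted p = 0.013). The other probe had log2 fold changes of -1.40 (limma adjusted p = 0.0238) and -0.68 (limma adjusted p = 0.0538) in these settings, so it did not pass with normexp. Without WT replicate 4 the brighter probe gave -1.56 with an adjusted p of 0.0525 (limma).

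Ptch1, the receptor, and Smo, the transducer it restrains, did not pass the threshold. Ptch1 had a log2 signal of -3.19, -4.07, -4.24 and -4.11 in WT replicates 1 to 4 and of -4.34, -4.62, -3.59 and -3.55 in Nkx2-1cKO replicates 1 to 4. Both groups were spread over about 1 log2 unit and overlapped, with WT replicate 1 the highest of all 8 arrays. The log2 fold change of Ptch1 was -0.12 (SE 0.31, limma adjusted p = 0.906), and the 95% confidence interval ran from 56.9% to 149% of WT. Without WT replicate 1, the array on which dim probes read high, it was 0.12 (limma adjusted p = 0.949). Ptch1 was well above background on all 8 arrays, and the part of that shift in its value was not tested. The within-slide differences were -0.37 and 0.13. These arrays therefore do not resolve a change of Ptch1 within that interval.

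Smo was better resolved, above all on its brighter probe. Its brighter probe was between 3.09 and 3.38 in WT and between 3.12 and 3.50 on the mutant arrays, which differ by 0.07 in log2 units (SE 0.10, limma adjusted p = 0.825). The 95% confidence interval was 89.6% to 123% of WT. The dimmer probe gave -0.15 (SE 0.19, limma adjusted p = 0.795), and the mean of both probes gave -0.04.

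The co-receptors Gas1 and Boc both rose. Gas1, which is anchored to the membrane by a lipid, had a log2 signal of -2.16, -2.69, -2.31 and -2.51 in WT replicates 1 to 4 and of -1.90, -1.65, -1.58 and -1.46 in Nkx2-1cKO replicates 1 to 4. The groups did not overlap, and WT replicate 1 and Nkx2-1cKO replicate 1 lay nearest to each other. Gas1 rose by 0.77 (SE 0.14, limma adjusted p = 0.0394), or 1.71-fold (95% confidence interval 1.37 to 2.14). This call was close to the threshold: with 1 array left out in turn the log2 fold change lay between 0.68 and 0.86, but it passed in 2 of the 8 cases (adjusted p between 0.0281 and 0.141, limma). With slide as a block the adjusted p was 0.00839 (limma), and the within-slide differences were 0.68 and 0.86.

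Boc, a transmembrane protein of the immunoglobulin superfamily, had a log2 signal of -0.45, -0.32, -0.03 and -0.07 in WT replicates 1 to 4. In Nkx2-1cKO replicates 1 to 4 it was 0.39, 0.40, 0.68 and 0.74. No array of the groups overlapped. Boc rose by 0.77 (SE 0.13, limma adjusted p = 0.0212), or 1.71-fold (95% confidence interval 1.40 to 2.08), by 0.82 on slide 1 and 0.72 on slide 2. It passed in 5 of the 8 cases with 1 array left out, and not without WT replicate 2 or without Nkx2-1cKO replicate 3 or 4 (adjusted p between 0.0747 and 0.0794, limma). Cdon, the close relative of Boc, had a log2 fold change of 0.34 (SE 0.32, limma adjusted p = 0.731), with an SD of 0.75 among the Nkx2-1cKO arrays (n = 4). Whether Cdon differs from Boc in its change was not tested.

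**Figure D2:**
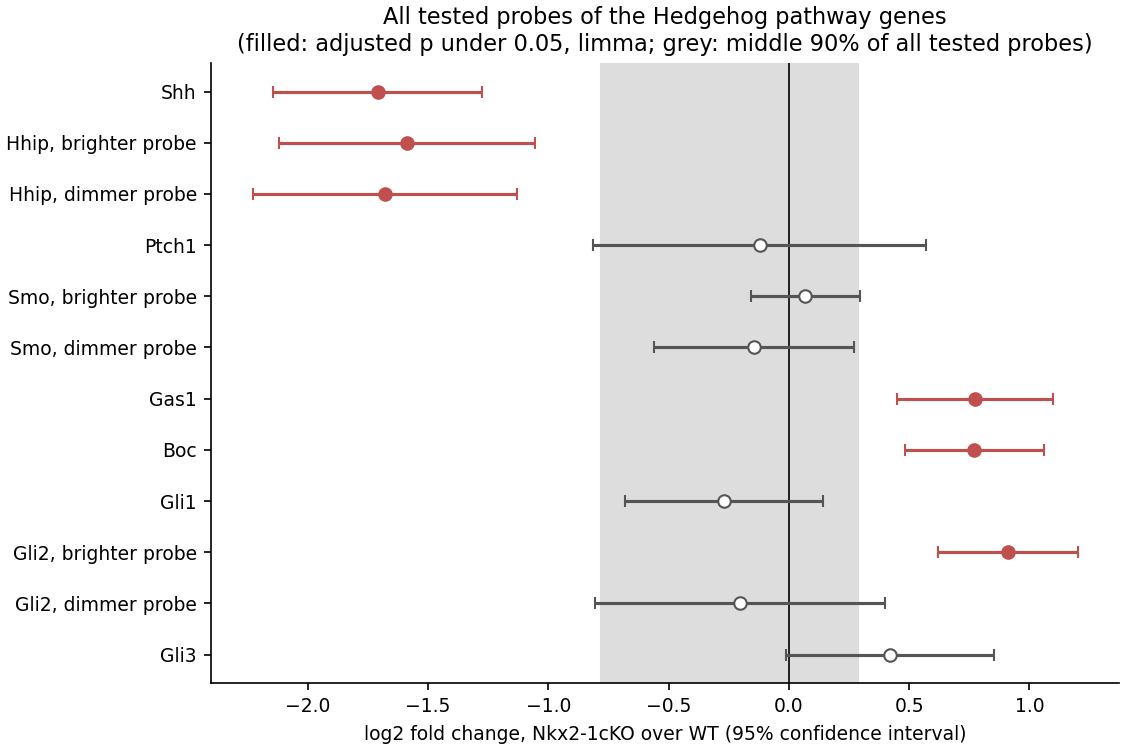
Log2 fold change of Nkx2-1cKO over WT with its 95% confidence interval for the 12 tested probes of the 9 genes; filled points passed the threshold, and the grey band holds the middle 90% of all tested probes (-0.78 to 0.29). Shh and both Hhip probes lie below the band, Gas1, Boc, the brighter Gli2 probe and Gli3 (0.42, which did not pass) lie above it, and the dimmer Gli2 probe does not follow the brighter.

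Among the transcription factors, Gli1 and Gli3 did not pass the threshold and Gli2 rose on 1 of its 2 probes. Gli1, the target gene, had a log2 signal of -3.47, -3.91, -3.89 and -3.48 in WT replicates 1 to 4 and of -3.60, -4.16, -4.15 and -3.92 in Nkx2-1cKO replicates 1 to 4. Its log2 fold change was -0.27 (SE 0.18, limma adjusted p = 0.664), with a 95% confidence interval of 62.3% to 110% of WT. The groups overlapped, and the difference had the same sign on both slides (-0.36 and -0.18) and in all 19 other settings of the analysis (-0.39 to -0.06).

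Gli2, the main activator, had a log2 signal of -1.39, -1.57, -1.82 and -1.29 on its brighter probe in WT replicates 1 to 4, and of -0.60, -0.79, -0.52 and -0.51 in Nkx2-1cKO replicates 1 to 4. The Nkx2-1cKO arrays were all above the WT arrays and close together (SD 0.13). This probe rose by 0.91 (SE 0.13, limma adjusted p = 0.00894), or 1.88-fold (95% confidence interval 1.54 to 2.30). It passed with any 1 array left out, and slides 1 and 2 gave 0.95 and 0.87. The dimmer probe, also well above background on all 8 arrays, had a log2 fold change of -0.20 (SE 0.27, limma adjusted p = 0.804) and overlapping groups. The probes differed in their change by 1.11, with no overlap between the groups in the difference of the pair (p = 0.0286 by exact permutation, two-sided, which is the lowest value possible with 4 arrays in each group). The mean of both probes gave 0.35 (limma adjusted p = 0.613). Both are assigned to the same transcript in the array design, and their sequences were not used here, so the rise of Gli2 stands for its brighter probe only.

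Gli3 was measured on its brighter probe at 2.19, 1.71, 1.43 and 1.51 in WT replicates 1 to 4 and at 2.06, 1.74, 2.48 and 2.24 in Nkx2-1cKO replicates 1 to 4. WT replicate 1 lay among the Nkx2-1cKO arrays and apart from the other WT arrays. The log2 fold change was 0.42 (SE 0.19, limma adjusted p = 0.594), with a 95% confidence interval of 99.2% to 181% of WT. Without WT replicate 1 it was 0.58 (limma adjusted p = 0.275). The dimmer Gli3 probe was well above background on 1 array of each group and was not tested.

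**Figure D3:**
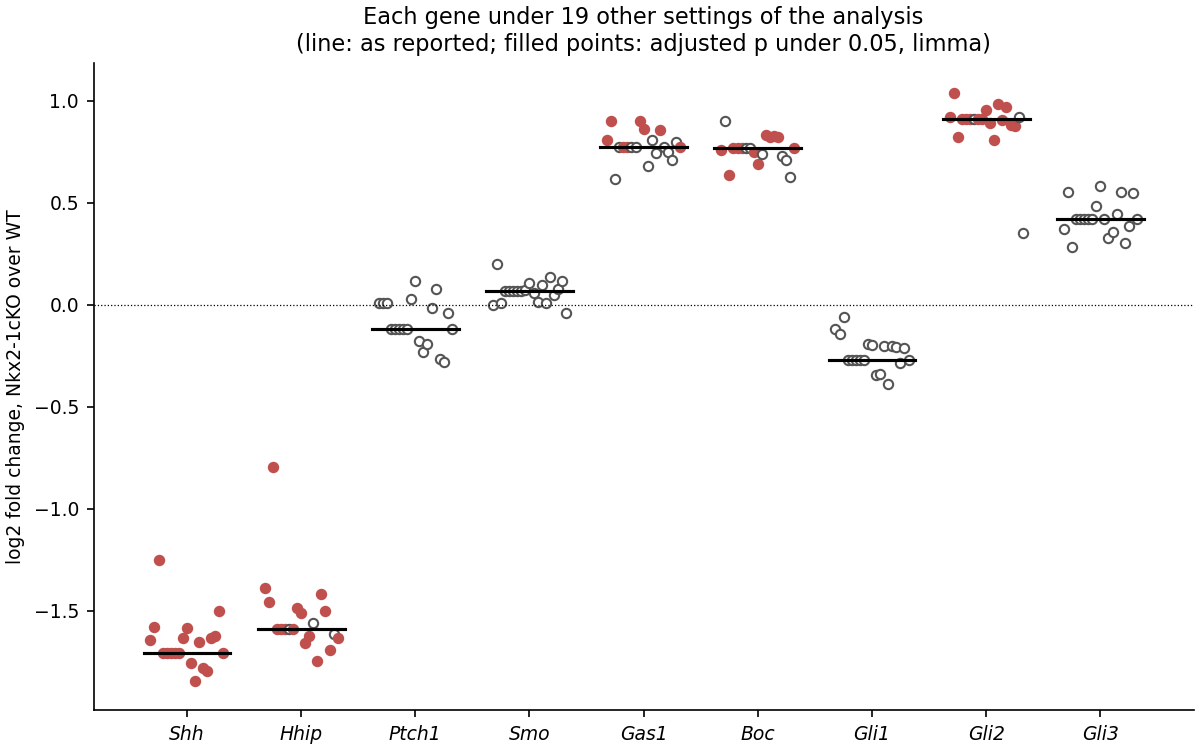
Log2 fold change of Nkx2-1cKO over WT for each of the 9 genes (black line: as reported) and under 19 other settings (points, filled where the adjusted p was under 0.05 in limma). Shh passed in all 19, Hhip and Gli2 in 16, Boc in 12 and Gas1 in 8, and none of these 5 changed sign, while Ptch1 lay on both sides of 0. Each gene is shown by its brightest probe, or by the mean of its probes where they were averaged. The dimmer Gli2 probe is not shown and did not pass in any setting that fitted it alone.

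Other genes of the pathway were read from lists of ligand processing, receptors, cytoplasmic transduction, the cilium and response genes. Apart from the deleted Nkx2-1, 38 of 46 listed genes had a tested probe, and none passed the threshold over all probes (limma). At an unadjusted p under 0.05 there were 6 of 38, where 8.6% of all tested probes had such a p. The median over the 38 was 0.06 in log2 units. The 6 genes did not share a direction. Among them Ccnd2 (0.39), Sfrp1 (0.32) and Mycn (0.29) had higher means in the Nkx2-1cKO, and Scube2 (-0.64) and Nkx2-2 (-0.91) had lower ones. Mycn, which drives division of neural progenitors, came closest to the threshold (SE 0.06, limma adjusted p = 0.0873). It passed with slide as a block (0.29, limma adjusted p = 0.026) and with array weights (0.29, limma adjusted p = 0.0499). The response gene Olig2, whose regulatory sequence drives the Cre, had a log2 fold change of 0.15 (limma adjusted p = 0.658). Of the brightest others, Prkaca, the catalytic subunit of protein kinase A, and Csnk1a1, a casein kinase that phosphorylates Gli proteins, had log2 fold changes of 0.16 and -0.05. The 13 tested genes of cytoplasmic transduction lay between -0.22 and 0.21, and none had an unadjusted p under 0.05. The 5 genes of the cilium, where the pathway is assembled, lay between -0.05 and 0.20. Mycn, Scube2, Nkx2-2 and Olig2 were chosen after their values were seen.

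**Figure D4:**
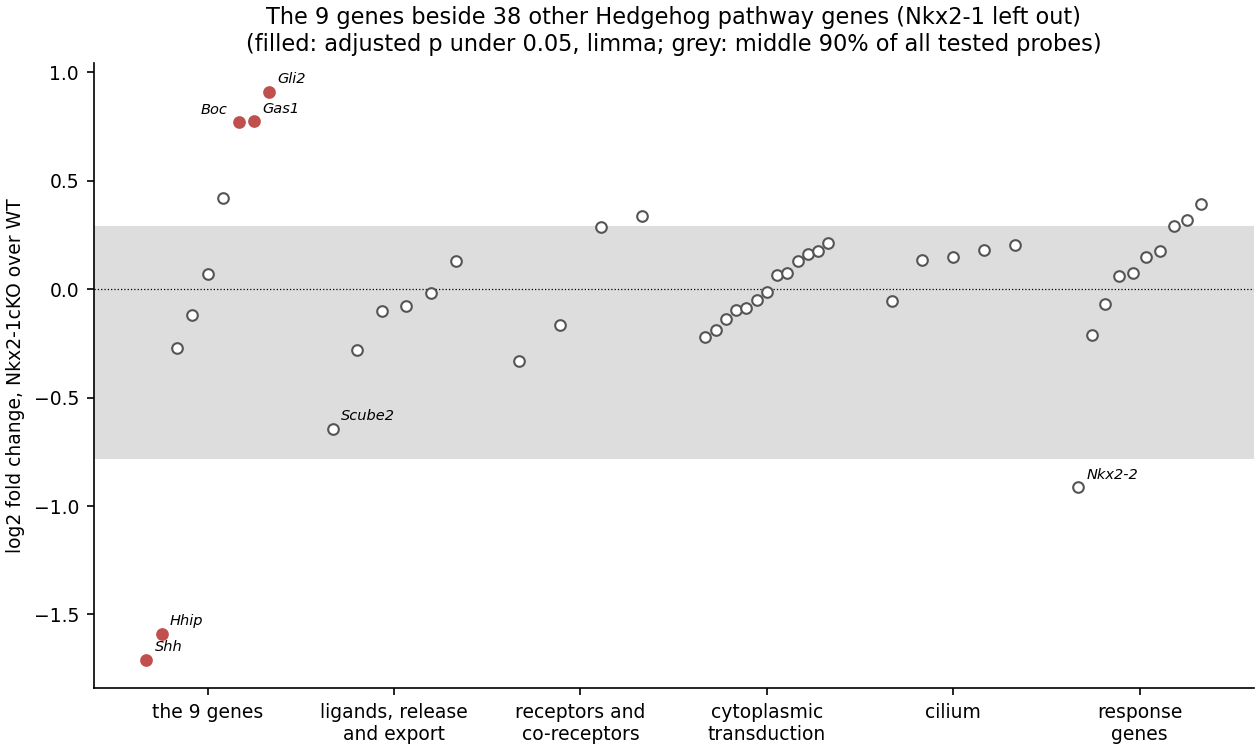
Log2 fold change of Nkx2-1cKO over WT for the 9 genes and for 38 other Hedgehog pathway genes grouped by role, 1 point per gene by its brightest probe, filled where the adjusted p was under 0.05 (limma); the grey band holds the middle 90% of all tested probes. Filled points occur among the 9 genes only, and Mycn, at 0.29, is open here but passed in 2 other settings.

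Several cell type lists were set beside these results, each by the summed signal of its tested genes, in units of the 75th percentile of the array. MGE and preoptic markers, 8 genes of which had a value on every array, summed to between 49.8 and 53.8 on the WT arrays and to between 9.3 and 10.5 on the Nkx2-1cKO arrays, parallel to Shh and Hhip. A separate list for preoptic area and hypothalamus, with 6 tested genes, went the other way. It summed to between 0.415 and 0.737 in WT and to between 1.06 and 1.76 in the Nkx2-1cKO, with 2 genes higher and none lower. The 2 were Six3 and Dbx1, and the other 4 did not pass. Six3 made up 37.9% to 65.8% of the sum in WT and 31.2% to 51% in the Nkx2-1cKO. Without it the sums were 0.153 to 0.439 and 0.521 to 1.21. LGE and CGE markers summed to between 42.7 and 56.1 in WT and to between 78.6 and 87.5 in the Nkx2-1cKO, parallel to Gas1, Boc and Gli2, with 4 of 12 genes higher and none lower. The higher genes were Meis2 (0.98), Isl1 (1.26), Ebf1 (1.37) and Zfp503 (1.39), and the CGE genes Nr2f1 (0.10), Nr2f2 (-0.13) and Sp8 (0.34) did not pass. Meis2 made up 40.3% to 64.3% of the sum in WT and 59.8% to 69.4% in the Nkx2-1cKO. Without it the sums were 17.9 to 25.5 and 25.2 to 32.4, which overlap slightly. Markers of ventricular zone progenitors, the cells that respond to Shh, summed to between 137 and 173 in WT and to between 129 and 151 in the Nkx2-1cKO, and none of 10 passed the threshold. Markers of postmitotic neurons summed to between 161 and 173 and to between 161 and 176, and none of 9 passed. Meningeal and mesenchymal markers, a tissue in which Gas1, Boc and Gli genes can be active, summed to 7.22 on WT replicate 4 and to between 0.975 and 1.59 on the other WT arrays. The Nkx2-1cKO arrays were between 0.962 and 1.56, and none of 7 genes passed. On WT replicate 4 Shh, Hhip, Gas1 and Boc lay within the range of the other WT arrays, and Gli2 was the highest of them. The part of cell composition in the changes of the 5 genes was not tested.

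By the Pearson correlation of log2 signals over all 8 arrays, the gene most like Shh among 14448 others was Tacr3 (r = 0.988), the receptor of neurokinin B, followed by Zar1, Vav3, Etv5 and Kcns2. Tacr3 and Kcns2 fell, with log2 fold changes of -1.18 and -1.48 (adjusted p = 0.0293 and 0.017, limma). Zar1, Vav3 and Etv5 had -0.67, -0.30 and -0.80 and did not pass (adjusted p = 0.0823, 0.275 and 0.0707, limma). Most like Hhip were Crhbp (r = 0.986), Rhpn2, Asic4, Scgn and Dtd2, all 5 of which fell. For Gli2 they were Fzd8 (r = 0.989), Flrt2, St3gal1, Ass1 and Acsl5, of which all but Acsl5 rose. For Gas1 they were Ak8 (r = 0.966), Cd47, Cldnd1, Rnd3 and Ebf1, and for Boc Pcbp3 (r = 0.980), Man1c1, Selenoo, Mapk8ip1 and Pbx3. Among these last 10 genes, Ebf1, a transcription factor of striatal neurons, rose by 1.37 (limma adjusted p = 0.00652), and Man1c1 rose by 0.57 (limma adjusted p = 0.0338). The other 8 did not pass the threshold. These values describe likeness over arrays that fall into 2 groups and share the scaling of each array.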

How the data were processed

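RNA from MGE of 4 WT and 4 Nkx2-1cKO samples was measured on 1-colour arrays. The authors deposited Feature Extraction output (version 10.7.3.1 per the file headers, 10.1 per the submitters' processing notes), in which each spot's intensity is background-subtracted and detrended within the array but not scaled between arrays. The deposited files also hold raw median intensity, local background and spot flags. Groups were taken from the sample titles.

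Control and outlier spots were left out, each array's 75th percentile was subtracted from its log2 intensities, and replicate spots were averaged. Accessions gave 24844 of 41174 probes a symbol, 17178 in all, through RefSeq (GRCm38.p6), and no probe was placed by coordinates, because the array design names another build; RefSeq coordinates serve only the upstream sequences. A probe was tested if 4 or more of 8 arrays had it well above background (31283 probes, 53 missing values). The test was limma 3.58.1 (R 4.3.3; lmFit, then eBayes with trend), with Benjamini-Hochberg adjustment (threshold 0.05). The fit was also run on simulated arrays with independent normal noise. These hold no slide effect and no shift of dim probes, so the run does not cover either. The brightest tested probe represents a gene. Single values were compared by exact two-sided permutation tests. Confidence intervals (95%) come from the limma fit, and the number of arrays limits the precision.

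The members and lists were chosen with earlier results of these data known. Named genes are the 9 members, Nkx2-1, listed pathway genes past the threshold, the 4 brightest others, list markers and the 5 genes most like each called member. Mycn, Scube2, Nkx2-2, Olig2, Dhh, Ihh and Cdon fall outside this rule and were chosen after their values were seen. A summed list signal leaves out genes with a missing value. The other settings were median centring, quantile normalization, normexp on the median signal (offset 50, then quantile), a mean-signal filter or no filter, blocks for slide or for replicate number, array weights, eBayes without trend, averaging the probes of a gene, and leaving out arrays. The 6 members with a promoter sequence are Ptch1, Smo, Gli2, Gli3, Hhip and Gas1, and for Ptch1 and Gli2 the window lies inside the gene. The chromatin and reporter experiments of the study were not analysed here. The values of 1 listed pathway gene are not reported here.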

Additional observations from a re-analysis of the deposited data

Results flagged for a closer look

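In 26 groups of 4 arrays, 2 for each of the 13 probes, 3 held an array far from the other 3 of its group, where chance gives such an array in about 1 in 20 groups. Ptch1 read -3.19 on WT replicate 1 against -4.24 to -4.07 on the other WT arrays. The dimmer Gli3 probe read -5.3 on the same array against -8.38 to -7.96. For the same probe, Nkx2-1cKO replicate 4 read -6.82, and the rest of its group lay between -8.39 and -8.15. Dim probes as a whole read high on WT replicate 1 (median deviation 1.42 over the dimmest 20% of probes) and not on Nkx2-1cKO replicate 4 (-0.02). The part of this in these values was not tested.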

How the results depend on the processing

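Shh fell past the threshold in all 19 settings (-1.84 to -1.25). Hhip and Gli2 passed in 16 (-1.75 to -0.80 and 0.35 to 1.04), Boc in 12 (0.63 to 0.90) and Gas1 in 8 (0.62 to 0.90), with no change of sign. These values are for the brightest probe, or for the mean of a gene's probes where they were averaged. The dimmer Gli2 probe lay between -0.41 and 0.08 and did not pass in any setting that fitted it alone. All settings reuse the same 8 arrays, and a change of filter, block or variance trend alone leaves the estimate of a probe as it is. Ptch1 turned positive with quantile normalization (0.0082), centring on the median (0.0089), normexp (0.0087), array weights (0.0289), without WT replicate 1 (0.118) and without Nkx2-1cKO replicate 2 (0.0764; range with 1 array left out -0.2792 to 0.1184), and Smo was -0.0385 with the mean of its probes. Centring on the median moved the median of all probes from -0.04 to 0.09.

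Of the 9 genes, 3 were higher and 2 lower as reported. With 1 array left out in turn, 1 to 3 were higher and 1 to 2 lower. Without WT replicate 1 and Nkx2-1cKO replicate 4 together, 0 were higher and 1 lower, and over all probes 58 and 122. Without a variance trend 1 was higher. Over all probes 132 were higher and 192 lower; centring on the median gave 115 lower and slide as a block 209 higher. With 1 array left out in turn these were 64 to 120 and 131 to 174. Among other pathway genes 1, Mycn, passed with slide as a block and 1, again Mycn, with array weights. The replicate block gave 0 higher and 1 lower of the 9 genes, and 8 and 65 of all probes. Arrays of the same number deviated apart (correlations -0.481 to -0.194). They also lay on opposite slides, so these correlations cannot decide whether a shared number marks a pair. The block uses up degrees of freedom. Fewer arrays enter the fits with arrays left out; elsewhere the cause was not tested. The second Gli3 probe, well above background on 2 of 8 arrays, could not be tested.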

Other observations

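Of the list for preoptic area and hypothalamus, which lie next to the MGE and hold other sources of Shh, 6 of 10 genes were tested. Six3 rose by 0.99 (standard error 0.12, adjusted p = 0.00336, limma) and Dbx1 by 2.26 (standard error 0.31, adjusted p = 0.00777, limma), both homeobox genes of ventral forebrain progenitors. The other 4 did not pass the threshold. The hypothalamic genes Otp and Six6 were not well above background on any array. Nkx6-2, a homeobox gene of the dorsal MGE that responds to Shh, stood at -0.59 ± 0.12 on the WT arrays and at -0.53 ± 0.33 on the mutant arrays (log2 signal, SD, n = 4; difference 0.06, limma adjusted p = 0.903).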
